A study of Mus musculus with 2 samples.

Results

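The 10 genes described here encode the core of the neuromuscular junction, the synapse at which a motor axon drives a skeletal muscle fibre. They were chosen by gene symbol: the subunits of the muscle acetylcholine receptor (Chrna1, Chrnb1, Chrnd, Chrne and Chrng), the agrin receptor Lrp4, its partner kinase Musk, the adaptor Dok7, the receptor scaffold Rapsn and the enzyme Ache. All models that the deposited tables assign to these symbols were summed per gene. Of the 10, 8 had reads in replicate 1 and 9 in replicate 2, among 14658 annotated genes with reads in either library. Together the 10 genes held 152 reads in replicate 1 and 204 in replicate 2.

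The RNA came from gastrocnemius, the large calf muscle, and was sequenced as long reads. The animals were B6CASTF1/J males, 2 months old, a first-generation cross of C57BL/6J with CAST/EiJ mice, and the labels name no treatment. Each library was made from 2 µg of RNA. With 2 libraries of a single group there is no contrast between conditions and no p-value. The labels number the males differently but give both the same donor identifier, so the spread between the libraries may be partly technical.

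At the junction, acetylcholine released by the nerve opens a receptor that is a pentamer of subunits, and it is then cleared by acetylcholinesterase. The receptor of adult muscle contains the epsilon subunit, encoded by Chrne, in the place of the gamma subunit of fetal muscle, encoded by Chrng. Agrin from the nerve binds LRP4, LRP4 activates the kinase MuSK together with the cytoplasmic protein DOK7, and the signal gathers receptors under the nerve through rapsyn, the product of Rapsn. Nuclei beneath the synapse are known to transcribe these genes more than other nuclei of the same fibre. In RNA from whole muscle, fewer synaptic nuclei and less RNA per nucleus cannot be told apart.

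Replicate 1 held 1107128 reads of annotated genes and replicate 2 held 1402875. Levels are counts per 1000000 reads of annotated genes (CPM), and 1 read is worth 0.903 CPM in replicate 1 and 0.713 CPM in replicate 2. A count of 0 allows a level of up to 3 reads, which is 2.71 CPM in replicate 1 and 2.14 CPM in replicate 2. These limits are 1-sided and all intervals below are 2-sided, both at 95%. For 0 reads the 2-sided Poisson interval therefore reaches higher, to 3.33 CPM in replicate 1 and 2.63 CPM in replicate 2. Limits and intervals cover counting error only, and the reads carry no molecular identifiers by which repeat reads of the same molecule could be removed. Muscle markers were abundant in both libraries: Acta1, the skeletal actin, had 68197 and 74164 reads and Ckm, the muscle creatine kinase, had 80874 and 90068. Of 10 motor axon genes, 9 had 0 reads in both libraries (Chat, Slc18a3, Slc5a7, Syt2, Snap25, Nefl, Nefm, Nefh and Mnx1). Isl1, a motor neuron transcription factor, had 1 read in replicate 1 and 0 in replicate 2. Myelin genes of Schwann cells were present, with 39 and 38 reads of Mbp and 44 and 73 of Pmp22. The part of Schwann cells in the levels given below was not tested.

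Rapsn had the highest level of the 10 genes and Chrng had no read. The 10 genes summed to 137 CPM in replicate 1 and 145 CPM in replicate 2, a mean of 141 CPM ± 5.74 (SD, n = 2). By CPM the order was Rapsn, Dok7, Ache, Chrnb1, Chrna1, Chrne, Musk, Chrnd, Lrp4 and Chrng. Divided by the length of the longest annotated transcript it became Rapsn, Dok7, Chrne, Chrnb1, Ache, Chrna1, Musk, Chrnd, Lrp4 and Chrng, so that 3 genes changed place. That length need not be that of the form read: for Ache it is 3687 bases, against 2186 for its most read transcript, Ache-201. Rapsn had 26.9 CPM per kb ± 1.48 and Dok7 had 9.88 CPM per kb ± 0.179 (SD, n = 2), and the counting intervals of this pair were separate in both libraries. None of the other 8 neighbouring pairs in the order per kb had separate intervals in both libraries. In 3 pairs the values of the libraries overlapped as well: Chrne with Chrnb1, Musk with Chrnd, and Chrnd with Lrp4.

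**Figure D1:**
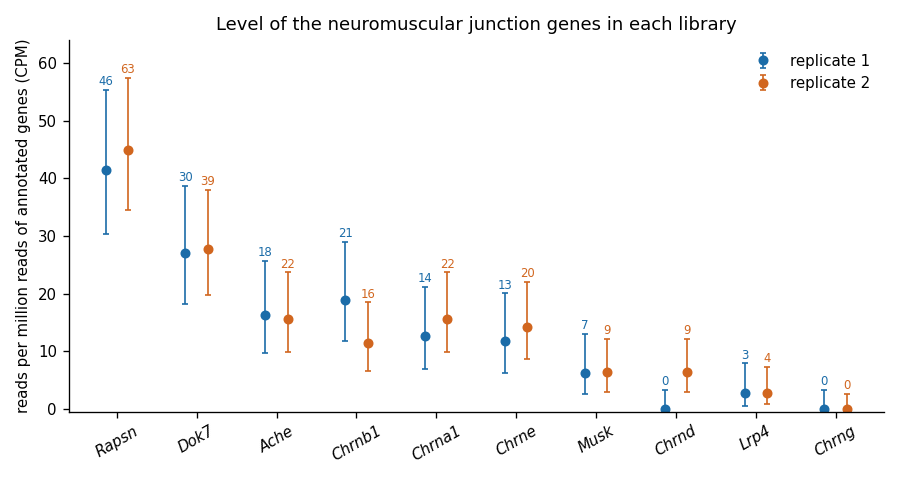
Level of each of the 10 genes in CPM (vertical axis, linear) in replicate 1 (blue) and replicate 2 (orange). Points are the libraries, bars are exact Poisson 95% intervals and the numbers over them are reads. Rapsn lies highest with 46 and 63 reads, Chrnd has points at 0 and 6.42 CPM, and Chrng is at 0 in both libraries.

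Among the receptor subunits, alpha, beta and epsilon averaged 13.0 to 15.2 CPM, delta was read in 1 library only and gamma in neither. In annotated transcripts alone Chrna1 averaged 13.5 CPM, Chrnb1 10.1 CPM and Chrne 7.99 CPM. Chrna1, which encodes the alpha subunit that carries most of the acetylcholine-binding site, lies on chromosome 2 (mm10, 73563215 to 73580338, minus strand). It had 14 reads in replicate 1 and 22 in replicate 2, or 12.6 and 15.7 CPM, a mean of 14.2 CPM ± 2.15 (SD, n = 2). Chrnb1, the beta subunit gene on chromosome 11 (69784036 to 69795943, minus strand), had 21 and 16 reads, or 18.97 and 11.4 CPM. Its level was the higher of these 2 subunits in replicate 1 and the lower in replicate 2, with a mean of 15.2 CPM ± 5.35.

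Chrne, the epsilon subunit gene, lies on chromosome 11 (70614883 to 70619216, minus strand) and had 13 and 20 reads. Its level was 11.7 CPM in replicate 1 and 14.3 CPM in replicate 2, a mean of 13.0 CPM ± 1.78 (SD, n = 2). Chrng, the gamma subunit gene on chromosome 1 (87204657 to 87212694, plus strand), had 0 reads in both libraries. Epsilon therefore made up 100% of the epsilon and gamma reads in each library, with Wilson intervals from 77.2% in replicate 1 and from 83.9% in replicate 2. Set against the limit of 3 reads per library for Chrng, the Chrne count was 4.33-fold that limit in replicate 1 and 6.67-fold in replicate 2. Against a limit of 3 reads over both libraries together, it was 11-fold. These folds leave out the counting error of Chrne itself. The Wilson interval of the epsilon share over both libraries began at 89.6%.

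Chrnd, the delta subunit gene, lies just upstream of Chrng on chromosome 1 (87190607 to 87200070, plus strand). It had 0 reads in replicate 1 and 9 in replicate 2, where its level was 6.42 CPM. Its level in replicate 2 was 2.37-fold the limit of 3 reads in replicate 1. With the counting error of both libraries included, the exact interval of the ratio began at 1.56. Of the 284 annotated genes with 9 summed reads, 10 had 0 reads in replicate 1, or 3.52%. All 9 Chrnd reads had the complete chain of the 12-exon annotated transcript.

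As shares of all subunit reads, 48 in replicate 1 and 67 in replicate 2, Chrna1 held 29.2% and 32.8% and Chrne 27.1% and 29.9%. The Chrnb1 share was 43.8% in replicate 1, with a Wilson interval of 30.7 to 57.7%. In replicate 2 it was 23.9%, with an interval of 15.3 to 35.3% that overlaps the first, and the difference was not tested. The Chrnd share was 0% in replicate 1, which allows up to 6.25%, and 13.4% (7.23 to 23.6) in replicate 2. For Chrng the limit was 6.25% in replicate 1 and 4.48% in replicate 2. The alpha subunit is used in 2 copies per receptor, but its reads did not exceed those of beta and epsilon by more than their intervals. Genes of the nicotinic receptors of neurons and other tissues were nearly all at 0: 9 of 11 had no read in either library. Chrna9, a subunit known from hair cells of the ear, had 5 and 3 reads, and Chrna2 had 0 and 2.

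The promoters of Chrne and Chrng are shown because their products take the same place in the receptor, and of the pair only Chrne had reads. They are the 250 bases upstream of the start in RefSeq (GRCm38.p6), at chr11:70619195-70619444 on the minus strand and chr1:87205561-87205810 on the plus strand. Capitals mark the N-box CCGGAA, which the ETS factor GABP is known to bind in synaptic genes, and the E-box CANNTG, which myogenic factors bind.
Chrne: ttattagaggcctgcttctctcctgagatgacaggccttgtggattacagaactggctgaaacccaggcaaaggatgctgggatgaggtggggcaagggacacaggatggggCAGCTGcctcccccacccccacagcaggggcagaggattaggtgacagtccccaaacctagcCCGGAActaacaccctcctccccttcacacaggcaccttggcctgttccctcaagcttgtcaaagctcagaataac
Chrng: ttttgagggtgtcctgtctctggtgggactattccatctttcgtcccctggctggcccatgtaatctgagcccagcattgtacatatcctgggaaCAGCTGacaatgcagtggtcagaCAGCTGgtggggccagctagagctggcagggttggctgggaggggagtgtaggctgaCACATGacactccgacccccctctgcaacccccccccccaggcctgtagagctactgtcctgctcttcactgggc
The Chrne window held 1 N-box, whose first base lies at -76 from the start, and 1 E-box at -138, and the motifs did not overlap. The Chrng window held no N-box and 3 E-boxes, at -155, -132 and -75. For 27 of 33 Chrne reads the model began exactly at this RefSeq start. Promoter windows were found for 7 of the 10 genes (8 windows), and Chrne was the only one of the 7 with an N-box on either strand. Over 32851 windows of this length in the table, 12.0% held an N-box and 66.2% an E-box. All 7 genes had an E-box in at least 1 window. Chrna1, Chrnb1, Chrng and Musk had 3 each, where 12.2% of all windows had 3 or more. These matches are letters in a window and say nothing of binding.

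The genes of the agrin pathway differed widely in level, with Rapsn and Dok7 the highest of all members, Musk lower and Lrp4 near the detection limit. Lrp4, the receptor for agrin, lies on chromosome 2 (91457511 to 91513779, plus strand) and had 3 reads in replicate 1 and 4 in replicate 2, or 2.71 and 2.85 CPM. The count of replicate 1 is the limit that 0 reads would allow and that of replicate 2 is 1 read above it, so its level is only loosely set, with a Poisson interval from 0.559 to 7.92 CPM in replicate 1. Musk, the receptor kinase, lies on chromosome 4 (58285960 to 58374303, plus strand) and had 7 and 9 reads, or 6.32 and 6.42 CPM, a mean of 6.37 CPM ± 0.0656 (SD, n = 2). The libraries differed by less than 1 read's worth of CPM, well inside the Poisson interval of 2.54 to 13.0 CPM in replicate 1.

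Dok7, which encodes the adaptor that activates MuSK from inside the fibre, lies on chromosome 5 (35056766 to 35087839, plus strand). It had 30 and 39 reads, or 27.1 and 27.8 CPM, a mean of 27.4 CPM ± 0.497 (SD, n = 2). Rapsn, on chromosome 2 (91035620 to 91045729, plus strand), had 46 and 63 reads, or 41.5 and 44.9 CPM, a mean of 43.2 CPM ± 2.38. It ranked 2418 among the 14658 detected genes by mean level, which places 83.5% of them below it. For Ache, which encodes the enzyme that breaks down acetylcholine, 18 and 22 reads were counted on chromosome 5 (137287519 to 137294466, plus strand). Its level was 16.3 CPM in replicate 1 and 15.7 CPM in replicate 2, a mean of 16.0 CPM ± 0.407. In annotated transcripts alone Rapsn averaged 36.7 CPM, Dok7 18.2 CPM and Ache 10.4 CPM.

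None of the members with enough reads differed by more than 2-fold between the libraries. Of the 6 members with at least 20 summed reads (Chrna1, Chrnb1, Chrne, Rapsn, Dok7 and Ache), 0 were over 2-fold apart, against 571 of 6795 genes, or 8.4%, over the whole table. The log2 ratio of replicate 2 over replicate 1 had a median of 0.07 over these 6 genes and of 0.13 over all genes with at least 20 summed reads. The ratio was 1.24 for Chrna1 (exact interval 0.607 to 2.62), 1.21 for Chrne (0.575 to 2.66) and 1.08 for Rapsn (0.727 to 1.62). It was 1.03 for Dok7 (0.621 to 1.71), 0.965 for Ache (0.494 to 1.91) and 0.601 for Chrnb1 (0.293 to 1.21). Chrnb1 and Ache were the 2 members lower in replicate 2, and all 6 intervals include 1. Slow fibre markers were over 2-fold higher in replicate 2 in 4 of 4 genes (3 of 4 with the median-ratio or TMM scaling), with a summed level of 1325 CPM in replicate 1 and 5060 CPM in replicate 2, and their part in these ratios was not tested. Only 1 library stands on each side of these ratios, so no replicate checks them.

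**Figure D2:**
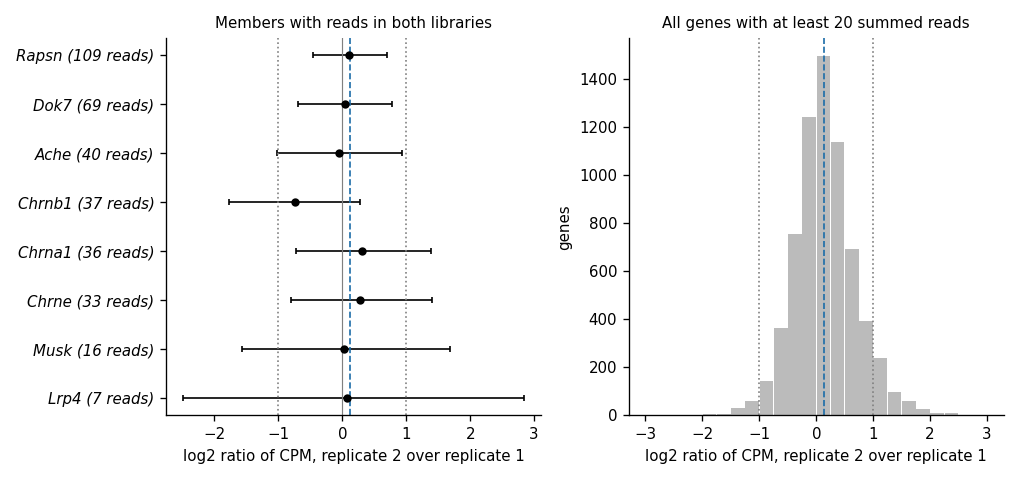
Left, log2 ratio of CPM, replicate 2 over replicate 1, for the 8 members with reads in both libraries, with exact 95% intervals; right, the same ratio for all genes with at least 20 summed reads, as a histogram. Dotted lines mark 2-fold and the dashed blue line the median of all genes (0.13). All 8 points lie within 2-fold, and the intervals widen as reads fall, most for Lrp4 with 7 reads.

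Most reads of the 10 genes followed an annotated transcript. Annotated transcripts held 71.1% of the member reads in replicate 1 and 70.6% in replicate 2, a mean of 70.8% ± 0.328 (SD, n = 2), against 65.8% ± 0.506 for all annotated genes. Models that the authors' assignment classed as incomplete matches to a longer chain held 13.8% and 11.3%. In replicate 2 this class included a Musk and a Rapsn model with unannotated introns, and single-exon models of Rapsn and Dok7. Models classed as joining annotated splice sites in another combination held 9.21% and 9.80%. Models classed as having an unannotated splice site held 4.61% and 8.33%. For all genes those 2 classes held 3.97% and 4.19%, and 17.2% and 17.4%. The members differed widely: 34 of 36 Chrna1 reads and 9 of 9 Chrnd reads were annotated transcripts, but 0 of 16 Musk reads and 0 of 7 Lrp4 reads were.

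**Figure D3:**
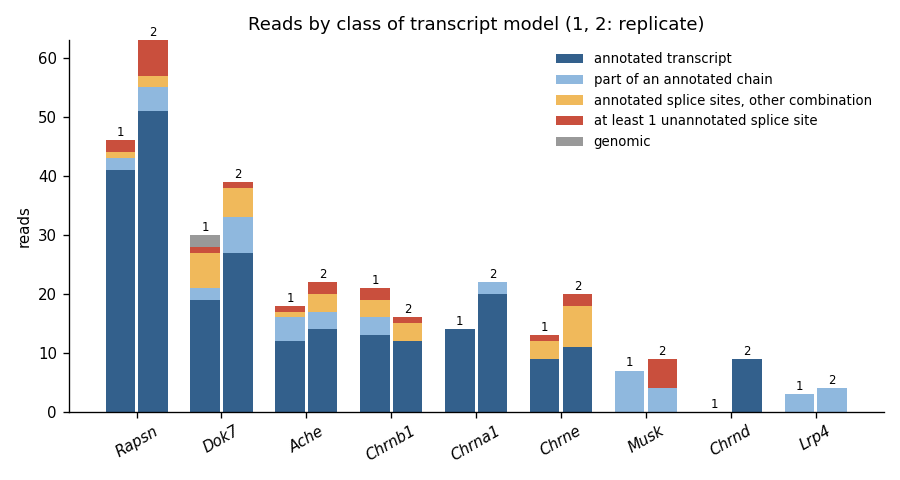
Reads (vertical axis) of each member by class of transcript model, stacked, with replicate 1 at the left and replicate 2 at the right of each pair. Annotated transcripts fill most of the Rapsn, Chrna1 and Chrnb1 bars, and Musk and Lrp4 have none.

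Counted by intron chain, 72 different chains were found, of which 17 occurred in both libraries. The 17 held 122 of the 152 reads of replicate 1 and 156 of the 204 reads of replicate 2, and 8 of them were not annotated. A whole annotated coding chain was held by 74.0% of spliced member reads in replicate 1 and 73.6% in replicate 2, and by 68.8% of all spliced reads of coding genes. By gene the mean was 95.5% for Chrna1, 85.7% for Rapsn, 81.2% for Dok7, 68.5% for Chrnb1, 65.2% for Ache and 62.1% for Chrne. Over 6064 genes with at least 20 spliced reads in both libraries together, the median share was 86.1%. Of the members just named, only Chrna1 lay above it. Rapsn and Dok7 were the 2 members with at least 20 reads in each library, and each had the same leading chain in both libraries, as had 3846 of 4111 genes, or 93.6%.

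The receptor subunit genes gave mainly full-length chains, with Chrne the most varied. The annotated Chrna1 chain, of 9 exons, was the only one in replicate 1 (14 of 14 reads) and held 20 of 22 in replicate 2. The other 2 reads lacked the 5′ end. The annotated 11-exon chain of Chrnb1 held 13 of 21 and 12 of 16 reads. A Chrnb1 chain that skips the 110-base exon 4 had 1 read in each library. Chrne had 12 chains among 33 reads. The most frequent were Chrne-202 with 6 and 8 reads and Chrne-201 with 3 and 3, which differ at the acceptor of exon 11. They are shown with the last 18 bases of exon 10 and the start of exon 11, taken from the GENCODE M21 transcripts at chr11:70615297-70615417 (mm10, minus strand), with the 3 extra bases in capitals.
Chrne upstream acceptor: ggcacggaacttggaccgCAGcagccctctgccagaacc
Chrne downstream acceptor: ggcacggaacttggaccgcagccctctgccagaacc
Over all chains that show the choice, the downstream acceptor was used in 6 of 10 reads in replicate 1, or 60% with a Wilson interval of 31.3 to 83.2%. It was used in 14 of 17 in replicate 2, or 82.4% with an interval of 59.0 to 93.8%. These intervals overlap, and the difference between the libraries was not tested.

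Chrne reads also carried skipped exons and retained introns. Exon 5, of 156 bases, was skipped in 0 of 13 reads in replicate 1 and 4 of 20 in replicate 2, and exon 11 was skipped in 2 reads of each library. An intron of the reference transcript was kept in 2 of 13 spliced reads in replicate 1 and 5 of 20 in replicate 2, together 21.2% (Wilson interval 10.7 to 37.8). Of 6064 genes with at least 20 spliced reads, 375, or 6.18%, had a retained intron in at least 10% of them, and 154, or 2.54%, had a share as high as that of Chrne. The median over those genes was 0%. The gene 4930544D05Rik overlaps Chrne on the opposite strand and had 0 reads.

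Rapsn was read mostly as a single form. The annotated 8-exon chain, Rapsn-201, held 41 of 46 reads in replicate 1, or 89.1%, and 50 of 63 in replicate 2, or 79.4%. The next chain was not annotated: it had 2 and 5 reads and differed only in the acceptor of the last exon, which lay 95 bases further upstream. With a further read of a shorter chain, that acceptor was used in 2 reads of replicate 1 and 6 of replicate 2. A chain that skips exon 6 had 1 and 2 reads and is not annotated. This exon has 54 bases, a multiple of 3, at chr2:91043691-91043744 (mm10, plus strand), and is shown whole because its loss recurred in both libraries.
Rapsn exon 6: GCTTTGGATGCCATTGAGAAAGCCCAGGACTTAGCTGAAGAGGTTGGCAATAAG
Exon 6 was included in 45 of 46 spanning reads in replicate 1 and 57 of 59 in replicate 2. The RNA gene Gm13778 overlaps the 3′ part of Rapsn on the opposite strand and had 0 reads.

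Most Dok7 reads ended before the 3′ exons of the longest coding transcript. An annotated 7-exon transcript, whose exon 7 runs on into the intron, was the leading chain with 18 and 26 reads, 64.3% and 66.7% of the reads without genomic models. At the donor inside it, which ends exon 6 of the longest coding transcript, 4 of 29 reads were spliced on to the downstream exons in replicate 1, or 13.8% with a Wilson interval of 5.50 to 30.6%. In replicate 2 it was 5 of 39, or 12.8% with an interval of 5.60 to 26.7%. The 2 outcomes are shown from chr5:35079726 on (mm10, plus strand), with the last 30 shared bases in lower case. The capitals are the intron bases through the annotated stop codon in the first sequence and the next exon in the second.
Dok7 read on past the exon 7 donor: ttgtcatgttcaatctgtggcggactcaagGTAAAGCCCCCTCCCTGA
Dok7 spliced at the exon 7 donor: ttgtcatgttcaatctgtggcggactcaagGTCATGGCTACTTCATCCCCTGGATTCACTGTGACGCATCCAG
The spliced outcome leads on into the 3′ part of the coding sequence of the longest coding transcript. Its main chain, of 10 exons, had 3 and 5 reads and was not annotated, because it joined the first exon of the 7-exon transcript to the 3′ exons of the longest coding transcript. Among 6064 genes with at least 20 spliced reads, 295, or 4.86%, had the last intron of their longest coding transcript in no larger a share of reads than Dok7 (13.8%), and the median was 99.1%.

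Musk and Lrp4, with the longest gene spans of the 10, were read mostly in part, and from opposite ends. Musk reads in replicate 1 were all 3′ pieces: 0 of 7 had the first intron and 7 of 7 the last. In replicate 2, 8 of 9 had the last intron, and 4 of 9 had both the first and the last. None of these 4 followed the whole annotated chain. Models ended past the last annotated end in 7 of 7 and 6 of 9 reads, and in the most frequent chain the end lay 3538 bases past it in replicate 1 and 3542 in replicate 2. The Lrp4 reads did the reverse. All 7 had the first intron, and 0 of 7 had the last intron of the longest coding transcript, which has 38 exons and 7926 bases. The main Lrp4 chain, with 13 exons and 1 and 4 reads, ended at the annotated end of a shorter transcript. Of 894 genes with a coding transcript of at least 6 kb and at least 5 spliced reads, 16, or 1.79%, had reads with the first intron and none with the last.

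**Figure D4:**
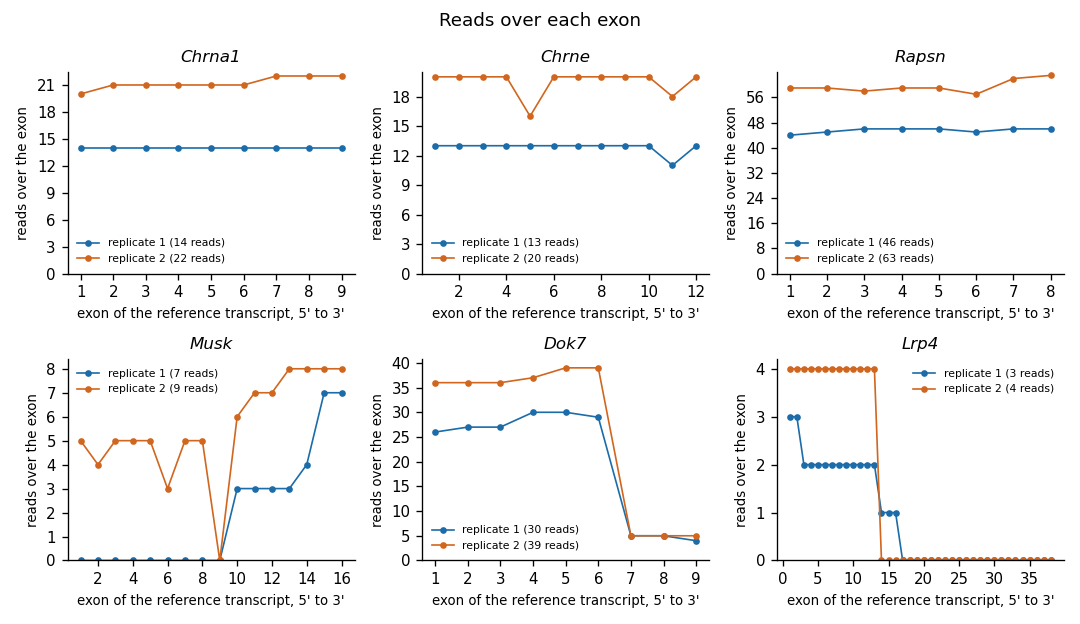
Reads over each exon of the longest coding transcript (horizontal axis, exon number from 5′ to 3′; vertical axis, reads) for 6 members in replicate 1 (blue) and replicate 2 (orange). Chrna1, Chrne and Rapsn are covered nearly evenly, Musk reads gather at the 3′ exons, Dok7 falls after exon 6 and Lrp4 has no read beyond exon 16.

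The Musk reads bear on several short exons. The 24-base exon at chr4:58356482-58356505 was included in 10 of 10 reads that span it, 3 in replicate 1 and 7 in replicate 2. The 30-base exon at chr4:58327326-58327355 was included in 3 of 5 reads, all from replicate 2. In those 3 reads it was preceded by another exon of 30 bases, at 58313088 to 58313117, that is not annotated. The 2 annotated exons are shown whole (mm10, plus strand).
Musk annotated 24-base exon: ATTATAAAAAAGAAAACATAACAA
Musk annotated 30-base exon: AAGACAGAGAACCTGAGCAGGACGCTAAAG
Exon 9 of Musk-203, of 52 bases, was skipped in 5 of 5 reads, and so was its 7-base form in Musk-202. All 5 used a donor that is not annotated, 4 bases past that of Musk-202 and 3 before that of Musk-201. The 3 junctions are shown between chr4:58344292 and 58353963, with the bases that differ in capitals.
Musk-202 junction: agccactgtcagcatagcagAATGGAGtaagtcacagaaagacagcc
Musk-201 junction: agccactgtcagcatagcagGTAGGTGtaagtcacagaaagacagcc
Musk junction of 5 reads: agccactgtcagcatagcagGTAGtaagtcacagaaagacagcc
The models give positions on the reference genome, not the bases of the reads. Which bases the 5 reads held at this junction was not analysed here.

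Ache was read almost entirely in its tailed form. Exon 5 of Ache-201 encodes the C-terminal tail by which the enzyme joins the collagen ColQ at the synapse. Intron 4 was spliced to that exon in 16 of 17 reads in replicate 1, or 94.1%, with a Wilson interval of 73.0 to 99.0%. The count was 21 of 22 in replicate 2, or 95.5%, with an interval of 78.2 to 99.2%. One read in each library ran on into the intron. The coding bases of the tailed exon, before the stop codon, are at chr5:137294117-137294235 (mm10, plus strand).
Ache tailed exon, coding part: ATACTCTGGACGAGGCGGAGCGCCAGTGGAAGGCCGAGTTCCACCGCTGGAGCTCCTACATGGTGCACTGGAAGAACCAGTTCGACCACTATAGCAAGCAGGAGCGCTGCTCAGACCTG
At the acceptor of exon 2 the downstream of 2 sites 3 bases apart was used in 9 of 14 and 13 of 15 reads. The 3′ end was less uniform: the models of 4 of 18 and 6 of 22 reads ended at the annotated end of Ufsp1, the next gene on the same strand, which starts 163 bases downstream. Ufsp1 itself had 8 and 5 reads. How the authors' assignment divides reads between these neighbours was not tested.

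**Figure D5:**
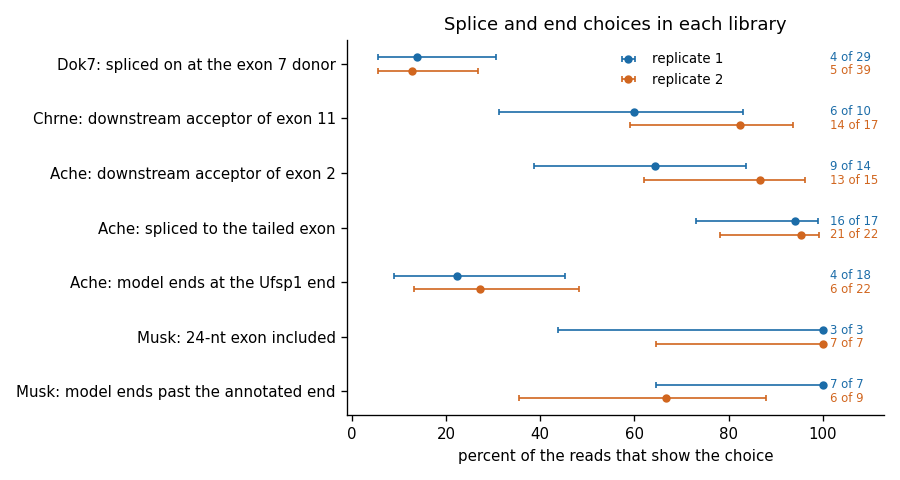
Percent of reads that took the named outcome (horizontal axis) for 7 splice and end choices of Dok7, Chrne, Ache and Musk in replicate 1 (blue) and replicate 2 (orange). Bars are Wilson 95% intervals and the counts stand at the right. For each choice the intervals of the libraries overlap.

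Other genes of the same synapse were measured in lists. For scale, of the 14658 annotated genes with reads in either library, 11558, or 78.9%, had reads in both. The lists also count genes with no read in either library, which that share leaves out. Of 9 ligands and receptor kinases, 7 were detected in both libraries, and Nrg1 and Erbb4 had 0 reads. Wnt4, a secreted ligand that can bind MuSK, had 57 and 35 reads, or 51.5 and 24.9 CPM. It was the only 1 of 3 with at least 20 summed reads that was over 2-fold higher in replicate 1, where 1.66% of all tested genes were. Cdk5, a kinase of the synapse, had 8 and 16 reads, the ligand Wnt11 had 7 and 16, and Agrn, whose product from the nerve is the signal to LRP4, had 4 and 10. All 21 genes listed as adaptors and kinases of the MuSK pathway were detected in both libraries. The most read were Dvl1, a Wnt signalling adaptor, with 221 and 554 reads, the chaperone Dnaja3 with 183 and 247, and the small GTPases Cdc42 with 159 and 199 and Rac1 with 115 and 136. Of 13 with at least 20 reads, 2 were over 2-fold higher in replicate 2, against 6.74% of all tested genes. They were Abl1, a tyrosine kinase, with 8 and 26 reads, and Gadd45a with 7 and 18, both named after their values were seen. Gadd45a is also in the list of denervation genes. Whether Gadd45a and Tk1, which this list also holds, act in the MuSK pathway was not tested. With the median-ratio or TMM scaling Abl1 alone was past 2-fold, 1 of 13, against 5.09% and 5.46% of all tested genes.

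In the synaptic basal lamina list, 9 of 12 genes were detected in both libraries, and Col13a1, Col4a3 and Col4a5 had 0 reads. Lamb2, the laminin beta2 chain of the synaptic cleft, had 79 and 153 reads. Colq, the collagen tail that anchors acetylcholinesterase, had 14 and 41 reads, or 12.6 and 29.2 CPM, the only 1 of 4 over 2-fold higher in replicate 2, where 6.74% of all tested genes were. Hspg2, the proteoglycan perlecan, had 10 and 14 and Nid1, nidogen, had 9 and 13. Of 11 scaffold genes, 10 were detected in both libraries. Plec, plectin, had 222 and 425 reads, the sodium channel Scn4a had 84 and 164 and Dtna, alpha-dystrobrevin, had 65 and 63. Utrn, utrophin, had 0 reads in both libraries. None of the 7 with at least 20 reads was over 2-fold apart.

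Among 12 regulators of synaptic transcription, 7 were detected in both libraries. Myf6, a myogenic factor of mature fibres, had 104 and 94 reads, the deacetylase Hdac4 had 18 and 35, Myod1 had 24 and 26 and Gabpa, the DNA-binding subunit of GABP, had 16 and 33. None of the 5 with at least 20 reads was over 2-fold apart. Of 10 genes of glycosylation and chaperoning that are known from congenital myasthenia and related muscle disease, 9 were detected in both libraries and Rph3a had 0 reads. Besides Plec, the most read were Dpagt1 with 13 and 25 reads, Gfpt1 with 9 and 26 and Alg2 with 14 and 14, all enzymes of glycosylation. Gfpt1 was the 1 of 5 over 2-fold higher in replicate 2, against 6.74% of all tested genes. Of 11 genes known to rise after denervation, 6 were detected in both libraries, and Chrng had 0 reads. The most read besides Chrna1 were Hdac4, Gadd45a and Myog, the myogenic factor myogenin, with 18 and 29 reads. Ncam1, an adhesion molecule, had 1 and 1 reads, and Myh3, the embryonic myosin gene, had 0 and 14.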

How the data were processed

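The authors aligned the reads to mm10, per the file headers and each library's deposited notes, and assigned them, 1 library at a time, to GENCODE M21 transcripts or unannotated TALON models. They deposited whole-number read counts per model, not normalized, and list models with at least 1 read. Which aligner and tool versions they used is not given in the sources used here. Short exons, splice site positions and transcript ends depend on that alignment.

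Counts were summed per gene symbol and divided by the reads of annotated genes without spike-ins (CPM). The SIRV spike-ins were not analysed here. Exon coordinates came from each library's own models, and chains were matched by exact introns. Intervals are exact Poisson for levels, Wilson for shares and exact conditional binomial for ratios, without a test. A 2-fold difference was read from 20 summed reads on, and a leading chain from 20 reads in each library. The 10 genes and the lists were chosen with earlier results of these data known. Named were all members, chains with at least 3 reads, and up to 4 most read genes of each list with those at 0 where 5 or fewer; some genes of the lists are counted but not reported here by name. Smaller chains, and the comparisons of gene ends, retained introns and promoters with all genes, were chosen after values were seen. Fold calls and exon scoring were tested on simulated data. Python 3.11.15, SciPy 1.17.1, R 4.3.3 and edgeR 4.0.16 (TMM factors only) were used. Sequences are from GENCODE M21 transcripts and RefSeq promoters (GRCm38.p6), both of C57BL/6J, and not from the hybrids' reads.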

Additional observations from a re-analysis of the deposited data

Results flagged for a closer look

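Reads on the strand opposite to a member belong to none of the comparisons above, and they exceeded the limit of 3 counts that 0 reads allow at 2 genes. On the opposite strand of Musk there were 22 reads in replicate 1 and 60 in replicate 2, against 7 and 9 reads on the Musk strand. Of these, 20 and 47 belonged to a single-exon model of 229 bases at chromosome 4, 58285962 to 58286190, which covers the first exon of Musk. In replicate 2 a further 5 belonged to a model from 58286851 to 58287966, whose coordinates are those of the second exon of an unannotated Musk model with 1 read. On the opposite strand of Lrp4 there were 3 reads in replicate 1 and 6 in replicate 2, in single-exon models of 751 to 3046 bases. Whether the strand of these single-exon models is right was not tested, and no read of theirs was counted for Musk or Lrp4.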

How the results depend on the processing

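Depth limits every value: with 7 to 109 summed reads per detected gene, the exact interval of the library ratio reached past 2-fold for all members with reads in both libraries except Rapsn and Dok7. No paired analysis was possible because there is a single group. With annotated transcripts only, the summed level was 100.1 CPM instead of 141 and Rapsn had 36.7 CPM instead of 43.2. Chrne then had 7.99 CPM instead of 13.0, Dok7 18.2 instead of 27.4 and Ache 10.4 instead of 16.0. The Chrna1 share of subunit reads was 38.7% instead of 31.0% and the Chrne share was 23.1% instead of 28.5%. By construction Musk and Lrp4 then had 0 CPM. Without genomic models the share of annotated transcripts was 71.3% instead of 70.8%, and Dok7 had 26.5 CPM instead of 27.4. Per kb of transcript 3 genes changed place in the order of levels. With a minimum of 10 reads in each library, 6 genes could be scored for a leading chain, and 6 had the same one in both libraries. The number of members over 2-fold apart was 0 with other scalings (median-ratio and TMM), which lower every log2 ratio by 0.10 and 0.09, with minimums of 10 and 50 reads and without unannotated or genomic models. Among the other lists these scalings, applied there after the data were seen, ended the 2-fold call of Gadd45a and of 1 slow fibre marker, Myl2. Leaving out either library leaves the other's own value, which gave Chrnb1 shares of 23.9% to 43.8%, Chrnd shares of 0% to 13.4%, Chrna1 shares of 29.2% to 32.8% and Chrne shares of 27.1% to 29.9%.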
